A study of Rattus norvegicus with 6 samples.

Results

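Enpp1 was followed in mesenchymal stromal cells of rat bone marrow (BMMSCs), adherent cells that can become osteoblasts, after 7 days in osteogenic induction medium. It is 1 of 30 genes that could be paired with a probe among the 38804 non-control probes of the array, and it was selected by its probe, A_43_P12841, which is printed in 10 spots. The cells came from the femurs of Wistar rats, the normal control, or of GK (Goto-Kakizaki) rats, which the study uses as its model of type 2 diabetes, with 3 Cy3-labelled total RNA samples per strain and an array for each. Ages are not given, every sample was induced, and the samples carry replicate numbers with no statement on whether each came from its own animal. The p-values therefore measure only the spread between these samples, which may be technical, and an effect of diabetes cannot be told apart from any other strain difference.

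ENPP1 is a membrane enzyme that splits extracellular ATP into AMP and inorganic pyrophosphate. Pyrophosphate blocks the growth of hydroxyapatite crystals, and bone-forming cells remove it with alkaline phosphatase, encoded by Alpl, so the balance of the enzymes helps set where mineral forms. ENPP1 is also known to bind the insulin receptor and dampen its signalling, and its loss causes mineral deposits in arteries and soft tissue.

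The arrays had between 65.1% and 77.3% of probes well above background, no saturated non-control spot, and a 75th percentile of the processed signal between 172 and 235 intensity units. Wistar replicates 1 to 3 and GK replicate 1 were scanned together, and GK replicates 2 and 3 in another scan, per the scan times in the file headers. GK replicate 3 stood apart from the other GK arrays: over the tested probes the levels of GK replicates 1 and 2 correlated at 0.982, while GK replicate 3 reached only 0.948 and 0.962 against them and 0.971 against Wistar replicate 3. The strain difference and the likeness to other genes are therefore also given without GK replicate 3. Of limma's array weights, which are lower for arrays that fit the model less well, the lowest was 0.43 for GK replicate 1. That of GK replicate 3 was the next lowest, 0.57.

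Enpp1 was a bright probe on all 6 arrays, and its signal spanned a 7.23-fold range before any scaling. On GK replicate 1 the processed signal of its spots ran from 6830.3 to 7678, with a median of 7131. On GK replicate 2 it ran from 7168 to 7888, with a median of 7517. On GK replicate 3 it ran from 1405 to 1618, with a median of 1464. The arrays of the diabetic strain thus gave a pair of high readings and a much lower reading on GK replicate 3. On Wistar replicate 1 the spots ran from 2462 to 2745, with a median of 2599.7. On Wistar replicate 2 they ran from 2038 to 2328, with a median of 2195. On Wistar replicate 3 they ran from 939.5 to 1093, with a median of 1046. Every spot of GK replicates 1 and 2 was brighter than every spot of the other 4 arrays, and every spot of GK replicate 3 was dimmer than every spot of Wistar replicates 1 and 2. Spots of an array share its RNA, so they show the precision of a reading and are not replicates of a strain.

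Relative to the array's 75th percentile, on the log2 scale, the Enpp1 level was 5.38, 5.26 and 2.68 on GK replicates 1, 2 and 3. It was 3.60, 3.51 and 2.58 on Wistar replicates 1, 2 and 3. These levels correspond to a signal of 41.6, 38.3 and 6.39 times the 75th percentile in GK cells and 12.1, 11.4 and 5.98 times in Wistar cells. The groups overlapped, since GK replicate 3 lay below Wistar replicates 1 and 2.

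**Figure D1:**
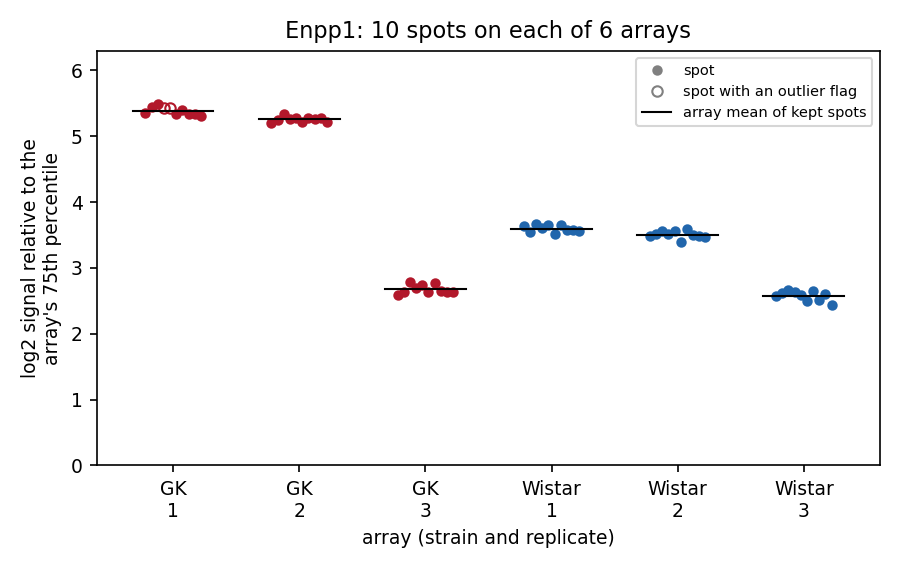
Enpp1 level of each of the 10 spots on the 6 arrays (x axis), as log2 signal relative to the array's 75th percentile (y axis). Filled points are spots, open points the 2 spots with an outlier flag on GK replicate 1, and black lines the array means of kept spots, which read 5.38, 5.26 and 2.68 in GK and 3.60, 3.51 and 2.58 in Wistar cells.

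Ordered by level, the 6 arrays formed 3 close pairs. GK replicates 1 and 2 differed by 0.12 on the log2 scale, Wistar replicates 1 and 2 by 0.09, and GK replicate 3 and Wistar replicate 3 by 0.10. Within each pair the kept spots of the arrays overlapped, and the larger SD between spots was 0.060, 0.054 and 0.073 in turn. Between the pairs they did not overlap: GK replicate 2 lay 1.66 above Wistar replicate 1, or 3.16-fold, and Wistar replicate 2 lay 0.83 above GK replicate 3, or 1.78-fold. The lowest pair joined an array of each strain. By rank alone, the same arrays held the highest, middle and lowest pairs in 11 of 12 ways of scaling and reading the signal. The exception was scaling to 2 E1A control probes, with array means between 8.76 and 34.7 intensity units, where GK replicate 3 read above Wistar replicates 1 and 2. It was nearly a tie, since GK replicate 3 lay only 0.013 above Wistar replicate 2 on the log2 scale. The pairs were not close in all of the others. GK replicates 1 and 2 differed by 0.62 with quantile normalization and also with scaling to the bright-corner control spots. With the bright-corner scaling the gap between the middle and lowest pairs was 0.20, below the 0.33 within the lowest pair.

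The 3 arrays of a strain differed far more than the spots of an array. The pooled SD between arrays of a strain was 1.15 on the log2 scale, against 0.059 between spots, a ratio of 19.5. The coefficient of variation between kept spots was between 2.77% on GK replicate 2 and 4.95% on Wistar replicate 3. On every array the SD between Enpp1 spots was below the median SD of the other well-detected probes with 10 spots, which lay between 0.063 and 0.095. The median raw spot signal was between 60.4 times the local background (Wistar replicate 3) and 444 times (GK replicate 2). The bright-corner control spots, which report hybridisation and scanning rather than the sample's RNA, read 36133, 58329 and 43021 on GK replicates 1, 2 and 3 and 65081, 51930.0 and 37197 on Wistar replicates 1, 2 and 3. With the arrays scaled to these spots, a scaling chosen after seeing the data, the GK minus Wistar difference of Enpp1 was 1.41 (limma adjusted p = 0.489). Their part in the Enpp1 levels was not tested.

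Some spots deviated slightly in the same direction on every array. Whether the printed position was the cause was not tested. The spot at row 227 and column 58 was above the array's mean on 6 of 6 arrays, by 0.080 on average on the log2 scale. The spot at row 402 and column 1 was below it on 6 of 6 arrays, by an average deviation of -0.069. The spots at row 328, at row 364 and at row 402, column 33, were also above the mean on 6 of 6 arrays. The spot at row 482 was below it on 6 of 6. Leaving out each spot position in turn kept the GK minus Wistar difference between 1.20 and 1.22. The spots with an outlier flag, at rows 328 and 364 on GK replicate 1, read 7400.3 and 7391, within the range of the 8 kept spots.

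**Figure D2:**
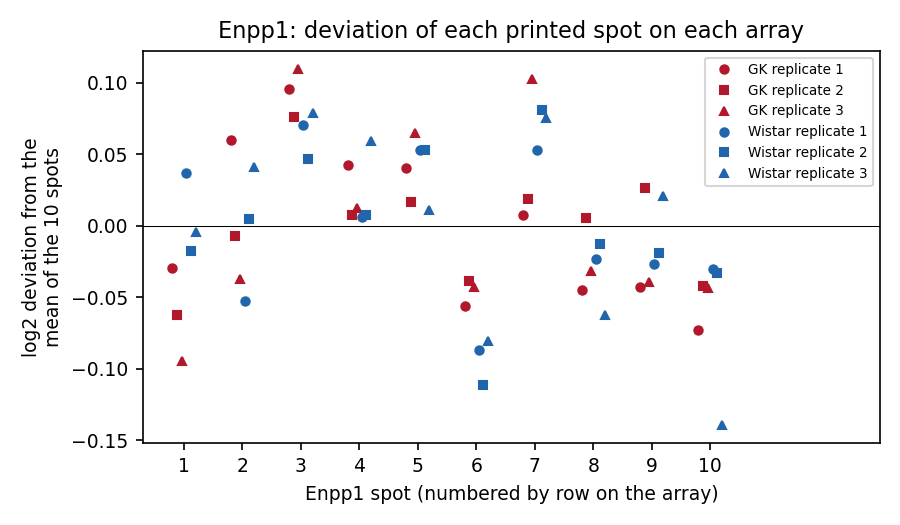
Deviation of each Enpp1 spot (x axis, numbered by row) from the mean of the 10 spots of its array (y axis, log2). Colours mark the strain and symbols the replicate; spot 3 lay above and spot 6 below the array mean on 6 of 6 arrays, and no deviation was further from 0 than -0.14.

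In brightness, Enpp1 ranked 1255 of 38801 measured probes on GK replicate 1 and 1797 of 38803 on GK replicate 2. It ranked 4886 of 38803 on GK replicate 3. On Wistar replicates 1, 2 and 3 it ranked 3680 of 38775, 3568 of 38710 and 4665 of 38509. The share of probes that were brighter was thus 3.23% and 4.63% on GK replicates 1 and 2, 12.6% on GK replicate 3, and between 9.21% and 12.1% on the Wistar arrays. Among the 50 probes with 10 spots it ranked 2 on GK replicates 1 and 2, 17 on GK replicate 3, and 12, 10 and 16 on Wistar replicates 1, 2 and 3. A rank orders probe brightness, which also depends on the probe, so it gives no transcript amount relative to other genes.

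**Figure D3:**
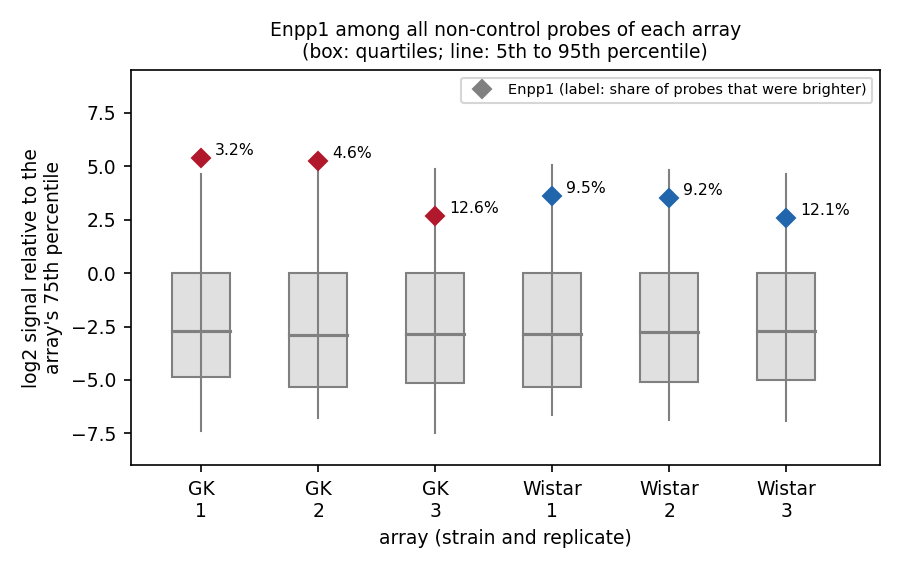
Enpp1 (diamonds) among all measured non-control probes of each array, as log2 signal relative to the array's 75th percentile. Boxes span the quartiles, lines the 5th to 95th percentile, and the printed labels give the share of probes that were brighter, 3.23% on GK replicate 1 and 12.6% on GK replicate 3.

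The comparison of the strains asks whether the transcript of this pyrophosphate-making enzyme differed in abundance between cells of the strains at the end of induction. The mean level was 4.44 ± 1.53 (SD, n = 3) in GK and 3.23 ± 0.56 (SD, n = 3) in Wistar cells. The difference of 1.21 on the log2 scale had a standard error of 0.74 and a 95% interval from -0.54 to 2.96, that is, from 0.687-fold to 7.77-fold around 2.31-fold. This difference missed the threshold (adjusted p = 0.556 and unadjusted p = 0.146 in limma), and the two-sided exact permutation test over the 6 arrays gave p = 0.30, where 3 arrays against 3 cannot go below 0.10. At an adjusted p under 0.05, 100 of the 27920 tested probes were called in the same limma fit, or 0.358%, and Enpp1 was not among them. An unadjusted p below that of Enpp1 was found for 26.2% of the tested probes. In RNA from whole cultures, fewer cells that make a transcript and less of it per cell cannot be told apart.

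Both the difference and the spread behind it were large among the tested probes. The absolute difference of Enpp1 exceeded that of 94.5% of tested probes, whose median was 0.26. Its SD between GK arrays exceeded that of 97.5% of tested probes, whose median was 0.35, and its SD between Wistar arrays exceeded that of 86.9%, with a median of 0.25. Among the 24 named genes tested it ranked 2 in absolute difference, 2 in SD between GK arrays and 5 in SD between Wistar arrays, counted from the largest.

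The value turned on which arrays were included. GK replicate 3 was singled out from these same data and had the lowest Enpp1 level in GK. Leaving it out therefore had to raise the difference, and a pass without it is no independent support. Without GK replicate 3 the difference was 2.09 and passed the test (limma adjusted p = 0.0427), in a fit that called 2.38% of probes. The exact permutation p was then 0.20, and 2 arrays against 3 cannot go below that two-sided value. Without GK replicate 1 the difference was 0.74 and without GK replicate 2 it was 0.80 (limma adjusted p = 0.685 and 0.827). Within the scan that holds both strains, GK replicate 1 alone lay 2.15 above the 3 Wistar arrays (limma adjusted p = 0.202, with the lone array assumed to vary like the others). The fit with the scan as a fixed block gives the same 2.15 by design, since the other scan holds no Wistar array, so it is not a separate result (limma adjusted p = 0.437). GK replicates 2 and 3 shared the other scan and differed by 2.58 in level.

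**Figure D4:**
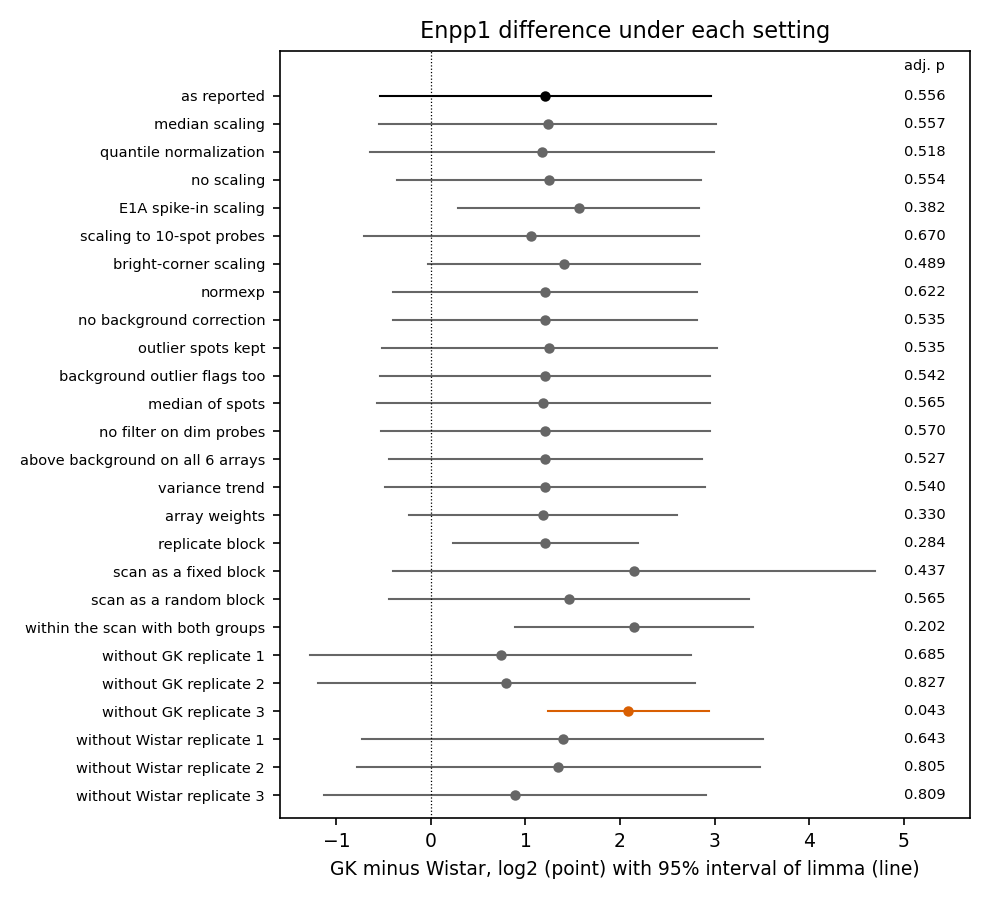
Enpp1 difference, GK minus Wistar on the log2 scale (points), with the 95% interval of limma (lines) and the adjusted p (right) under each setting. The orange point is the setting that passed, 2.09 without GK replicate 3; all points lie above 0, from 0.74 to 2.15.

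With other scalings of the arrays the difference lay between 1.06, with scaling to the 36 other 10-spot probes well above background on all arrays, and 1.56, with the E1A control probes. Both of these scalings subtract the same value from all probes of an array. The median difference over all tested probes therefore moved with Enpp1, to -0.15 and 0.35. Relative to that median the Enpp1 difference stayed at 1.21 by design, which is not a separate result.

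The genes that act with Enpp1 could be followed only in part. Of the 25 listed genes of pyrophosphate and phosphate handling in mineralisation, which include Alpl, the pyrophosphate transporter gene Ankh and the extracellular matrix genes Spp1 and Mgp, Enpp1 is the 1 with a named probe. None of the 22 osteoblast differentiation genes, among them Runx2, Sp7 and Tgm2, and none of the 12 genes of insulin receptor signalling had a named probe, so they were not analysed here. Likewise, none of the 8 stromal and 6 osteoblast markers could be used to check the labelled cell type. Of the 27 genes listed for purinergic signalling, by nucleotides or nucleosides, 2 had a named probe. P2rx2, an ATP-gated channel, was well above background on 0 of 6 arrays, and Slc28a2, a nucleoside transporter, is described below. Nlrp3 of the 7 macrophage and haematopoietic markers was well above background on 0 arrays and Map2 of the 4 neural markers on 2, and neither was tested. In the RefSeq gene order the protein-coding neighbours of Enpp1 are its relative Enpp3 and the growth factor gene Ccn2, neither of which had a named probe.

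The likeness of other genes to Enpp1 was measured as Pearson's r between log2 levels over the same 6 arrays, as a description without a test, since all genes share the arrays and the distance of GK replicate 3. Of the 23 other named genes tested, 14 had an r above 0, and the median was 0.29, against 0.09 over all tested probes. The highest r, 0.91, belonged to Ldha, which encodes a lactate dehydrogenase subunit. Ldha read 3.69, 3.77 and 3.37 on GK replicates 1 to 3 and 3.37, 3.24 and 3.13 on Wistar replicates 1 to 3. Mex3c, which encodes an RNA-binding ubiquitin ligase, had an r of 0.91 and the same order of arrays as Enpp1. It read -2.37, -2.69 and -2.96 in GK and -2.82, -2.94 and -3.05 in Wistar cells. Both moved much less than Enpp1, with an SD over the 6 arrays of 0.25 each against 1.22.

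Fgf2, a fibroblast growth factor, had the next highest r, 0.90, and read -0.53, -0.82 and -1.51 in GK and -1.77, -1.26 and -2.09 in Wistar cells. Unlike Enpp1, it read higher on GK replicate 3 than on Wistar replicate 1. At the other end, Slc28a2 had an r of -0.96. It read -0.96, 1.34 and 6.62 in GK and 3.77, 5.64 and 6.46 in Wistar cells. The order of arrays was nearly the reverse of that of Enpp1, and the SD was 3.07. Unlike Enpp1, Slc28a2 differed widely between GK replicates 1 and 2 and between Wistar replicates 1 and 2. N-cadherin, encoded by Cdh2, had an r of -0.87 and read -0.86, -0.85 and 0.02 in GK and 0.18, -0.32 and -0.11 in Wistar cells. Without GK replicate 3, over 5 arrays, r was 0.98 for Ldha, 0.90 for Mex3c, 0.94 for Fgf2, -0.95 for Slc28a2 and -0.85 for Cdh2. None of these 5 genes passed the test between the strains (limma adjusted p between 0.415 and 0.685).

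**Figure D5:**
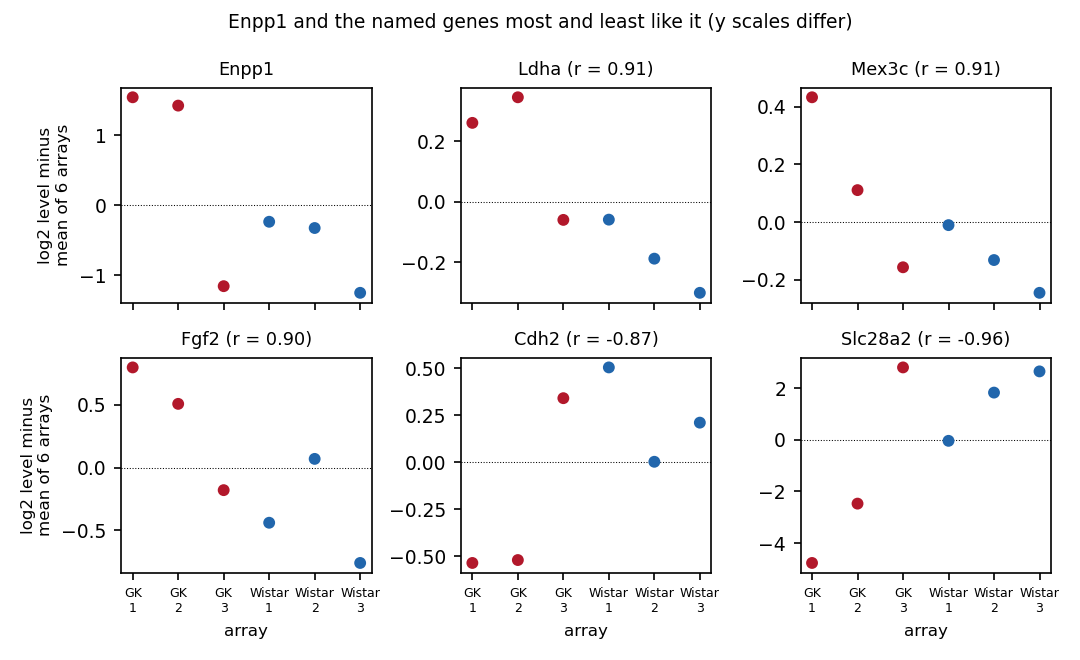
Levels of Enpp1, of the 3 named genes with the highest r and of the 2 with the lowest, each minus its mean over the 6 arrays (y axis, log2; scales differ between panels), by array (x axis). Red points are GK and blue points Wistar arrays; Enpp1 spans 2.80 between its highest and lowest array, and Slc28a2 runs the opposite way with r = -0.96.

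The scaling decided how alike Ldha and Mex3c were: over the 12 ways of scaling and reading the signal, r lay between 0.55 and 0.97 for Ldha and between 0.52 and 0.97 for Mex3c. It lay between 0.79 and 0.92 for Fgf2, between -0.97 and -0.92 for Slc28a2, and between -0.91 and -0.60 for Cdh2. Among the 23310 unnamed probes detected above background on each of the 6 arrays, the closest to Enpp1 were ASRN6AP1B100079846V3 (r = 0.9988) and ASRN6AP1B100017846V3 (r = 0.9975). The most opposed were ASRN6AP1B108971840V3 (r = -0.9974) and ASRN6AP1B100053482V3 (r = -0.9930). ASRN6AP1B100017846V3 read 4.11, 4.12 and 3.52 in GK and 3.76, 3.70 and 3.52 in Wistar cells, the same 3 pairs of arrays as Enpp1 over a narrower range. These probes were picked for their extreme r among 23310 over only 6 arrays, so such a match comes with the choice.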

How the data were processed

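Deposited values are linear spot intensities from Agilent's Feature Extraction software (version 11.0.1.1, per the file headers). The processed signal is background-corrected within an array and not normalised between arrays. The authors' deposited series table holds log2 values of 38620 probes without Enpp1, so it was not used; its column medians were 4.84, and its normalisation and centring are unknown here. Spots with a feature outlier flag (between 0.356% and 1.21% per array) were left out, log2 spots of a probe averaged, and the array's 75th percentile over non-control probes subtracted. Probes well above background (at least 50% of kept spots) on at least 3 arrays and measured on at least 2 per strain were tested with limma 3.58.1 in R 4.3.3, two-sided, with Benjamini-Hochberg adjustment. The procedure was tested on simulated data, and SciPy 1.17.1 gave the exact permutation test. Of 50 probes with 10 spots, 30 matched 1 gene through an accession in the files and the RefSeq table (GRCr8), leaving 38774 probes unnamed. Enpp1, the gene lists and the naming rule (the 3 highest and 2 lowest r among named genes, 2 and 2 among unnamed probes, and list members) were chosen with earlier results of these data known. Alternatives were other scalings, signals, flags, filters, variance models, blocks and each array left out; bright-corner scaling was added after seeing the data. The number of arrays limits the precision.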

Additional observations from a re-analysis of the deposited data

How the results depend on the processing

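The Enpp1 difference of 1.21 stayed above 0 under all 25 alternatives with a test and passed under 1 of them. Not all of these could move it: the filters on dim probes, the variance trend and the replicate block leave it at 1.21 by design. With all 6 arrays kept, it lay between 1.06 and 2.15, and the limma adjusted p between 0.284 and 0.670. Within the shared scan, which leaves out GK replicates 2 and 3, the adjusted p was 0.202. Leaving out each array gave 0.74 to 2.09 and an adjusted p of 0.0427 to 0.827, the former without GK replicate 3. The exact permutation p lay between 0.10 and 0.60. The lowest came from scaling to the E1A probes, where GK replicate 3 was nearly tied with Wistar replicate 2. The replicate number as a block left the difference at 1.21 (adjusted p = 0.284) and called 97 probes. Nothing in the labels ties a number to a shared batch or animal. Over the tested probes, the deviations of same-numbered arrays from their strain means correlated at 0.0087, 0.099 and 0.42. Arrays with unlike numbers were not compared, so these values cannot show whether the numbers pair the arrays. The 100 probes called became 7 with the scan as a fixed block, 65 as a random block, 23 within the shared scan, 226 with array weights, 62 with normexp, 64 when all 6 arrays had to be above background, and 31 to 664 without each array. Their split of 55 higher and 45 lower in GK became 81 and 25 with the E1A probes, 49 and 22 with bright corners, 46 and 67 with the 10-spot probes, and 26 and 36 with normexp. The cause was not tested. The authors' table was not run for Enpp1.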

Other observations

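Probes that ran closely with or against Enpp1 were a small share of all tested, and some of them varied as widely. An r of at least 0.9 with Enpp1 over the 6 arrays was found for 872 of 27594 other tested probes (3.16%), and an r of at most -0.9 for 637 (2.31%). An SD over the 6 arrays at least as large as the 1.22 of Enpp1 was found for 1163 probes (4.21%). Of the 872 probes that ran with Enpp1, 71 varied that widely, and of the 637 that ran against it, 282 did, both larger shares than the 4.21% over all probes. Of these widely varying probes only Slc28a2 has a name here, and the distance of GK replicate 3 from the other GK arrays is part of every such r. The shares of widely varying probes were not computed around other genes. Whether they are particular to Enpp1 was therefore not tested.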
